A study of Rattus norvegicus with 2 samples.

Results

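Matricellular proteins are secreted into the extracellular matrix, where they change how cells attach, migrate and respond to growth factors without serving as structural fibres. The genes described here encode 10 of them, in the families of the thrombospondins (Thbs1 and Thbs2), the tenascins (Tnc and Tnn), periostin (Postn), SPARC (Sparc), osteopontin (Spp1) and the CCN proteins (Ccn1, Ccn2 and Ccn4). Their probes were found by annotated symbol or by the older names Cyr61, Ctgf and Wisp1. All 10 genes were measured, among 15610 named genes in all, by 13 of the 40012 probes: 7 genes had 1 probe and 3 genes (Thbs2, Tnc and Ccn1) had 2. The genes were chosen because earlier results of the same arrays placed them low in lung, so their ratios are given as a description, with no test.

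RNA of rat lung cells taken without cell culture and left untreated was labelled with Cy3 and hybridised on 2 Agilent arrays against RNA of a control called mix1, labelled with Cy5. Mix1 combined bone marrow cells with primary ear fibroblasts, both of rat and both grown in culture medium containing fetal bovine serum. The labels give no strain, age, genotype or passage, do not say whether lung-1 and lung-2 came from separate animals, and do not say in what proportion the control cells were mixed. Any p-value therefore reflects the spread of these samples alone, and that spread may be technical.

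The values are log2 ratios, read as lung over mix1, so a negative ratio means less RNA in lung. This direction is likely but not stated outright. The series text speaks of the difference of lung from the control, whereas the scanner software's own ratio is Cy5 over Cy3. Read this way, 6 lung epithelial genes (Sftpc, Sftpa1, Sftpb, Sftpd, Scgb1a1 and Ager) had median log2 ratios of 5.66 in replicate 1 and 5.62 in replicate 2. With the sign turned, every direction below would be the opposite. Because mix1 was 1 RNA and no array had the dyes swapped, neither the spread of the control nor a dye effect is part of any error given here. In bulk RNA, fewer cells of a type and less RNA per cell cannot be told apart.

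As background, many matricellular genes are sparsely expressed in most resting adult tissues and strongly in development, wound repair and cultured mesenchymal cells. Fibroblasts exposed to serum and a stiff substrate express Ccn1 and Ccn2 as direct targets of the YAP and TAZ coactivators, which bind DNA through TEAD factors. TGF-beta raises several of the others, and thrombospondin 1 can in turn release active TGF-beta from its latent complex. Their receptors are mainly integrins, with CD36 and CD47 for thrombospondins and CD44 for osteopontin.

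RefSeq promoter windows of 300 bases (250 before and 50 after the annotated start; build GRCr8) were at hand for 8 of the 10 genes, all except Thbs2 and Ccn4. The TEAD hexamer GGAATG, searched on both strands, occurred in 5 of these 8 windows and in 14.2% of all 33469 windows of that length. This motif and those below were chosen after the promoter sequences had been seen, so nothing is read from their counts beside these shares. The stretches below lie before the start and are shown because they carry the hexamer, which is in capitals and reads CATTCC where it lies on the opposite strand. They are written 5′ to 3′ along the gene, and on the genome they are chr1:22624681-22624800 (minus strand) for Ccn2, chr2:237225777-237225822 (minus) for Ccn1, chr3:125510183-125510228 (plus) for Thbs1, chr10:40038824-40038869 (minus) for Sparc and chr13:74919918-74919963 (minus) for Tnn.
Ccn2: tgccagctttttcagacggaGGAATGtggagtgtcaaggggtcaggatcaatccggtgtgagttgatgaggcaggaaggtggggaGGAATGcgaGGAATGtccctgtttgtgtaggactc
Ccn1: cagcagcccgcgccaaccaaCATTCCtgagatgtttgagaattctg
Thbs1: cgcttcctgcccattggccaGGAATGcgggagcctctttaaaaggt
Sparc: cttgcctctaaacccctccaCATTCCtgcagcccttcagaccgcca
Tnn: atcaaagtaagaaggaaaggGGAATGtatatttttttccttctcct

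Ccn2 held 3 copies of the hexamer, beginning 166, 101 and 92 bases before its start, and the other 4 genes held 1 each. The hexamer began 113 bases before the start in Ccn1, 47 in Thbs1, 33 in Sparc and 154 in Tnn. The letters TATAAA, on the gene's own strand, occurred in 5 of the 8 windows and in 8.80% of all. They began 31 bases before the start in Ccn2, 34 in Ccn1 and 44 in Postn, and farther upstream in Spp1 (204) and Tnc (208). The RUNX letters AACCNCA, searched on both strands, were found only in the window of Spp1 among the 8, 2 times, and in 15.3% of all windows. No window of the 8 held the AP-1 letters TGANTCA (7.33% of all) or a CArG box (1.64% of all). A match is a description of letters and not of binding, and no match says only that these letters are not in these windows.

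All 10 genes lay below 0 in both arrays, with a median log2 ratio of -6.66 against -0.22 for all genes. Every one was at least 2-fold lower in lung in both arrays, where 15.8% of all genes were, and 6 were at least 16-fold lower in both, where 0.980% of all genes were. The choice of the genes used these same ratios, so nothing is read from those counts. Within the set the mean ratios spanned 7.42 log2 units, from Ccn4 to Postn. In the order of all genes from the lowest mean ratio, 5 of the 10 stood among the lowest 15 and 6 among the lowest 100, whereas Ccn2 was 278th, Ccn1 528th and Postn 1249th.

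**Figure D1:**
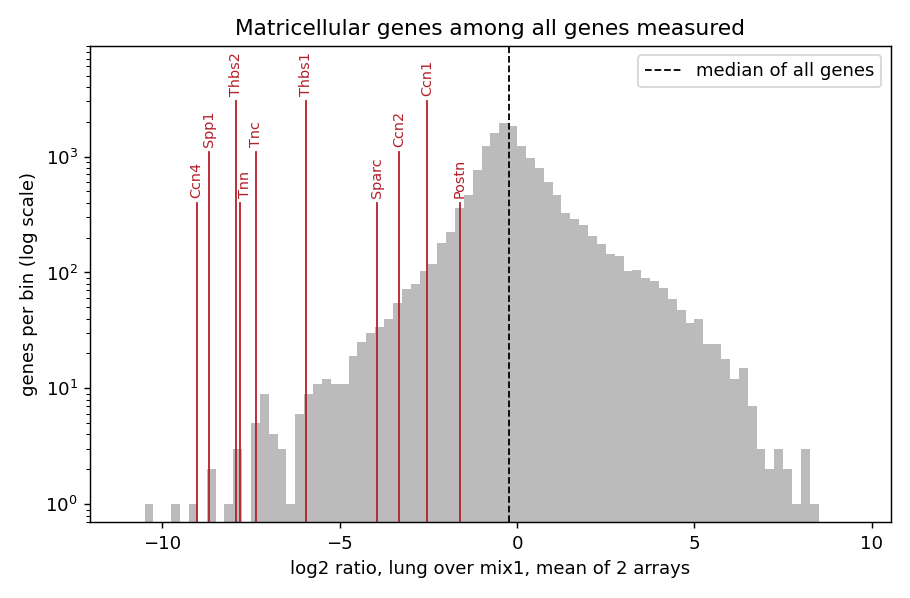
Histogram of the mean log2 ratio of lung over mix1 for the 15610 genes (genes per bin on a log axis), with the 10 matricellular genes as red lines and the median of all genes (-0.22) dashed. The 10 lines run from -9.03 (Ccn4) to -1.61 (Postn), with a gap between Thbs1 at -5.94 and Sparc at -3.94.

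The thrombospondins are large calcium-binding glycoproteins with binding sites for integrins, CD36 and CD47. For Thbs2, a product of fibroblasts that restrains vessel growth, the log2 ratio was -8.03 in replicate 1 and -7.82 in replicate 2. Its mean was -7.92 ± 0.15 (SD, n = 2), or 243-fold lower in lung. Thbs1, which platelets store in addition to its synthesis by stromal cells, had log2 ratios of -6.00 and -5.88. The mean for Thbs1 was -5.94 ± 0.09, or 61.5-fold lower. Both genes were far below 0 in both arrays and the arrays of one did not overlap those of the other, with Thbs1 lying 1.98 log2 units above Thbs2.

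The tenascins are large glycoproteins that weaken the adhesion of cells to fibronectin. Tnc, abundant at wound edges and in tendon, had log2 ratios of -7.52 in replicate 1 and -7.22 in replicate 2, a mean of -7.37 ± 0.21 (SD, n = 2), or 165-fold lower. Tnn, which encodes tenascin W and is known from bone and periosteum, had log2 ratios of -7.82 and -7.77, a mean of -7.80 ± 0.03, or 222-fold lower. Tnc and Tnn thus stood close together near the bottom of the whole distribution. Tnn is also the neighbour of Thbs2 in the order of the 10 genes, and theirs was the only pair of the 9 neighbouring pairs whose array values, averaged over probes, overlapped.

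Osteopontin, encoded by Spp1, is an acidic phosphoprotein of bone that macrophages also secrete. Its log2 ratio was -8.69 in replicate 1 and -8.68 in replicate 2, with a mean of -8.69 ± 0.0078 (SD, n = 2), or 413-fold lower in lung. It was the 4th lowest of all genes and had the smallest SD of the 10.

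Of the CCN proteins, which bind integrins and heparan sulphate, Ccn4 stood apart from Ccn1 and Ccn2. Ccn4, first known as a WNT1-induced gene, had log2 ratios of -9.13 in replicate 1 and -8.94 in replicate 2, a mean of -9.03 ± 0.13 (SD, n = 2), or 524-fold lower, and was the 3rd lowest of all genes. Ccn2, or connective tissue growth factor, had log2 ratios of -3.36 and -3.31, a mean of -3.33 ± 0.03, or 10.1-fold lower. Ccn1, an inducer of cell adhesion and angiogenesis, had log2 ratios of -2.55 and -2.53, a mean of -2.54 ± 0.02, or 5.82-fold lower. Ccn1 lay 6.49 log2 units above Ccn4. The genes whose TEAD hexamers are printed above range from Ccn1 at -2.54 to Tnn at -7.80. Ccn4 and Thbs2 had no window to search, and a link between hexamer and ratio was not tested.

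Sparc and Postn completed the set. SPARC (osteonectin) is a collagen-binding protein that assists fibril assembly and is made by endothelium as well as by fibroblasts. Sparc had log2 ratios of -4.06 in replicate 1 and -3.83 in replicate 2, a mean of -3.94 ± 0.16 (SD, n = 2), or 15.4-fold lower. Periostin binds collagen and tenascin C and is named for the periosteum. Postn had log2 ratios of -1.60 and -1.62, a mean of -1.61 ± 0.01, or 3.05-fold lower. With probes averaged, it was the mildest of the 10 and the only one in which replicate 2 was the lower array.

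**Figure D2:**
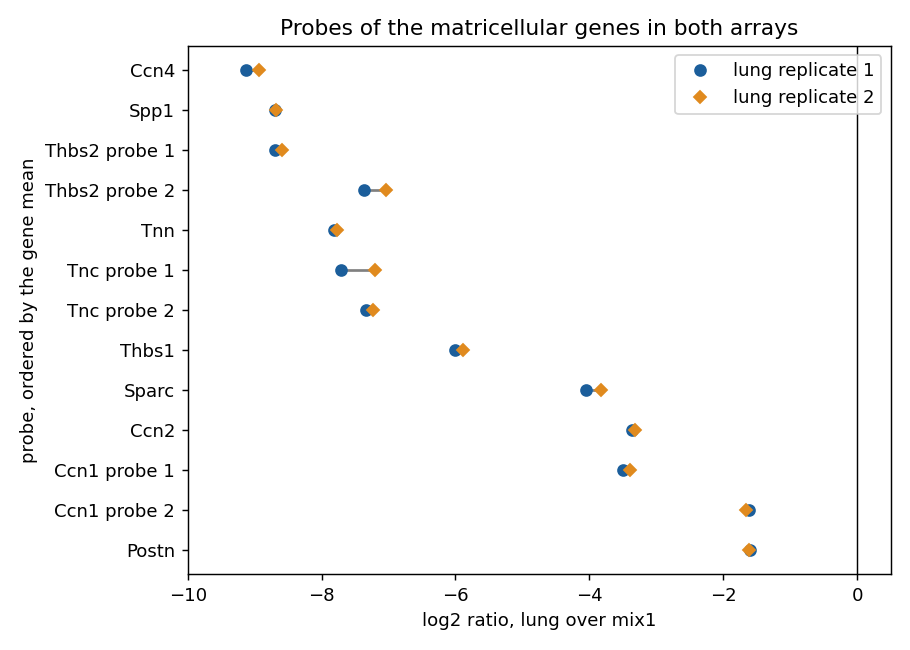
Log2 ratio of lung over mix1 (x axis) for each of the 13 probes of the 10 genes (y axis, ordered by gene mean), with a blue circle for lung replicate 1 and an orange diamond for replicate 2. The arrays lie at most 0.50 apart (Tnc probe 1), while the probes of Ccn1 (-3.45 and -1.63) and of Thbs2 (-8.64 and -7.21) lie far apart.

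For Ccn1 and Thbs2, probes of the gene differed more than arrays did. For Ccn1, a probe at -3.50 and -3.40 (log2 ratio in replicates 1 and 2) stood beside another at -1.61 and -1.66. The gap between their means was 1.81, against SDs between arrays of 0.07 and 0.04 for these probes. The probes differed between arrays in opposite directions, so the SD of 0.02 for the gene is smaller than either. For Thbs2, a probe at -8.69 and -8.60 stood beside another at -7.37 and -7.04, a gap of 1.44. The probes of Tnc agreed more closely, at -7.71 and -7.21 for one and -7.33 and -7.23 for the other, a gap of 0.18. Among the 2970 genes with 2 probes the median gap was 0.61, and 12.6% had a gap at least as large as that of Ccn1 and 18.6% at least as large as that of Thbs2. The less negative Ccn1 probe, with a mean of -1.63, lies next to Postn at -1.61, and replicate 2 is its lower array too. The more negative Ccn1 probe lies below Ccn2, so the order of Ccn1 and Ccn2 depends on the probe. The place of Thbs2 does too, since its probe with a mean of -7.21 lies above Tnn and Tnc and its probe at -8.64 lies next to Spp1. The other 7 genes rest on 1 probe each, and the SDs given above cover arrays and not probes.

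The spread between arrays was of the usual size, with a median SD of 0.06 for the 10 genes and 0.05 for all genes on the log2 scale. Replicate 1 was the lower array for 9 of the 10 genes. The same held for 250 of the 366 genes with a mean log2 ratio at or below -3, or 68.3%. The way background was subtracted, for which the sources used here give no detail, determines how large a ratio becomes when the lung channel is dim, and channel intensities were not used here.

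The closest relatives of the 10 genes did not all lie low. Of 26 matricellular relatives listed, 22 were measured, and limma's moderated test against 0 (Benjamini-Hochberg adjusted p under 0.05 over all genes) called 14 lower and 4 higher in lung. Among all genes, 49.7% were called lower and 32.9% higher, and this test calls many small differences. At least 2-fold in both arrays, 12 relatives were lower and 3 higher, where 15.8% and 16.5% of all genes were. The median log2 ratio of the relatives was -1.43, against -0.22 for all genes. The farthest below 0 were Comp (cartilage thrombospondin) at -5.94 ± 0.14 (SD, n = 2), Thbs4 at -5.46 ± 0.0078, the follistatin-like Fstl1 at -5.30 ± 0.06 and the elastic fibre protein Fbln2 at -5.17 ± 0.06, whose probes lay at -5.90 and -4.43. Farthest above 0 were the testican Spock2 at 5.92 ± 0.06, the SPARC-like protein Sparcl1 at 5.44 ± 0.15 and the spondin Spon1 at 1.49 ± 0.03, whose probes lay at 0.48 and 2.49.

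Family by family, the measured thrombospondins all lay far below 0, Postn and its relative lay close together, and the tenascins, the SPARC family, the CCN proteins and the osteopontin family were spread. The family members named in this paragraph beyond those just given were chosen after their values were seen. Tnr, the tenascin of the nervous system, had a log2 ratio of -0.27 ± 0.09 (SD, n = 2), 7.10 above Tnc, and its call as lower ended when array medians were subtracted (limma adjusted p 0.349). Tgfbi, the relative of periostin, was lower at -1.98 ± 0.14. In the SPARC family, Sparcl1 lay 9.38 log2 units above Sparc. Among CCN proteins, Ccn5 and Ccn3 were lower at -2.87 ± 0.0092 and -2.77 ± 0.03, close to Ccn1 and Ccn2, while Ccn6 at -0.18 ± 0.08 did not pass (limma adjusted p 0.0630). Of the acidic bone phosphoproteins related to osteopontin, Dmp1 and Mepe were lower at -1.46 ± 0.25 and -1.39 ± 0.17, and Dspp at -0.28 ± 0.13 did not pass (limma adjusted p 0.0515).

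**Figure D3:**
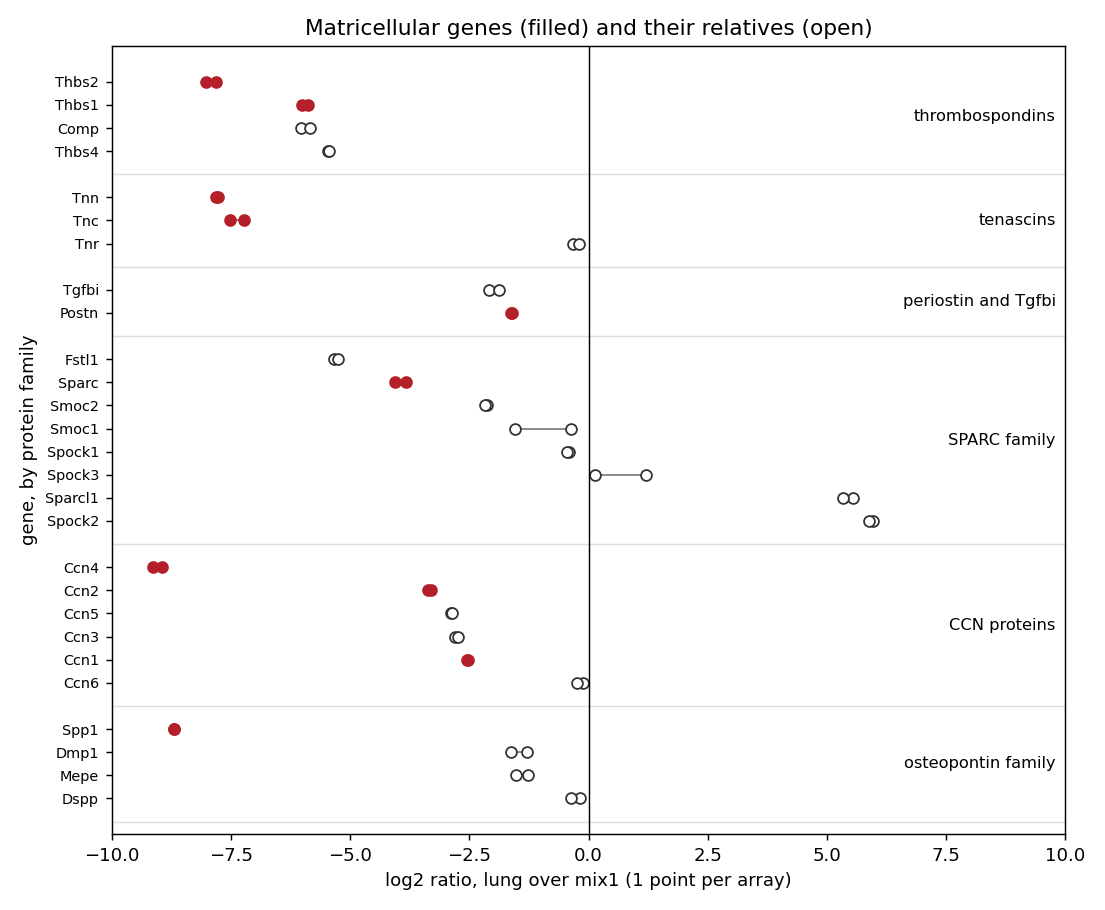
Log2 ratio of lung over mix1 (x axis, 1 point per array) for the 10 matricellular genes (filled red) and measured relatives (open), grouped by protein family. All thrombospondins lie below -5, whereas the SPARC family runs from Fstl1 at -5.30 to Spock2 at 5.92 and the CCN family from Ccn4 at -9.03 to Ccn6 at -0.18.

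Receptors for these proteins lay on both sides of 0, with a share of lower limma calls close to that of all genes. At least 2-fold from 0 in both arrays, their shares both lower and higher were larger than those of all genes. Of 29 receptor genes listed, 27 were measured, and limma called 13 lower and 12 higher in lung, where 49.7% and 32.9% of all genes were. With array medians subtracted it called 11 lower and 13 higher, beside 5932 lower and 6007 higher of all 15610 genes. The median log2 ratio of the receptors was -0.12, against -0.22 for all genes. At least 2-fold in both arrays, 9 were lower and 7 higher, where 15.8% and 16.5% of all genes were. The lowest were the integrin subunits Itgb5 at -2.70 ± 0.03 (SD, n = 2) and Itgav at -2.25 ± 0.10, which pair to bind osteopontin, vitronectin and periostin, and the endocytic receptor Lrp1 at -2.20 ± 0.04 (probes at -3.03 and -1.36), which clears thrombospondins. Cacna2d1, a calcium channel subunit that binds thrombospondins, followed at -1.82 ± 0.02. The highest were Itgb6, the epithelial integrin subunit that binds tenascin C and latent TGF-beta, at 5.16 ± 0.08, the thrombospondin receptor Cd36 at 3.96 ± 0.04 and the leukocyte integrin subunit Itga4 at 2.86 ± 0.13. These 7 genes passed limma's test at adjusted p from 0.00117 to 0.00153. Itgb6 is a gene of epithelium and Cd36 of capillary endothelium and macrophages, and what the mixture of cells contributes to these ratios was not tested.

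Genes of the TGF-beta and YAP pathways leaned lower. Of 27 listed, 22 were measured, and limma called 17 lower and 4 higher, where 49.7% and 32.9% of all genes were. Their median log2 ratio was -0.94. At least 2-fold in both arrays, 11 were lower and 2 higher, where 15.8% and 16.5% of all genes were. With array medians subtracted 6 were at least 2-fold lower, beside 1887 of all 15610 genes. The lowest were the ligand Tgfb3 at -3.47 ± 0.02 (SD, n = 2), the receptor tyrosine kinase and YAP target Axl at -2.01 ± 0.0037, the latent TGF-beta binding protein Ltbp1 at -1.78 ± 0.02 and the ligand Tgfb1 at -1.70 ± 0.00021. Ankrd1, another YAP target and also a gene of heart muscle, was higher at 2.44 ± 0.02, as were the inhibitory Smad7 at 1.88 ± 0.02 and the receptor Tgfbr1 at 0.63 ± 0.0045, whose probes ran from -0.15 to 1.95. The same test gave these 7 genes adjusted p from 0.00117 to 0.00294. The TEAD genes Tead1, Tead2 and Tead3 and the coactivator Wwtr1 (TAZ), named here after their values were seen, lay between -1.41 and -0.83, and Yap1 was not among the named genes measured.

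**Figure D4:**
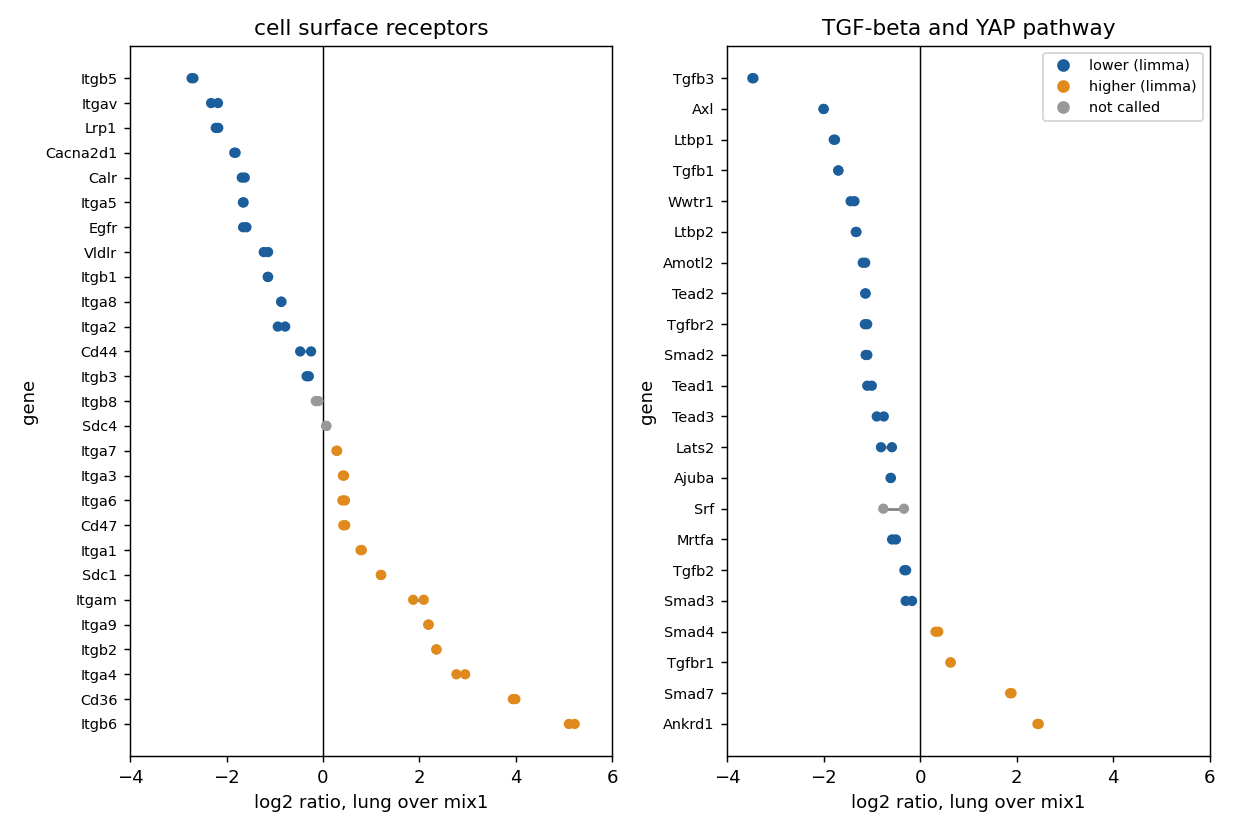
Log2 ratio of lung over mix1 (x axis, 1 point per array) for 27 receptor genes (left) and 22 genes of the TGF-beta and YAP pathways (right), coloured by limma call. Receptors run from Itgb5 at -2.70 to Itgb6 at 5.16, and 17 of the 22 pathway genes are called lower.

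Matrix partners were mostly lower. Of 20 collagens, other binding partners and processing enzymes listed, 18 were measured, and limma called 16 lower and 2 higher, where 49.7% and 32.9% of all genes were, with a median log2 ratio of -4.77. At least 2-fold in both arrays, 14 were lower and 2 higher, where 15.8% and 16.5% of all genes were. At least 16-fold in both arrays, 13 were lower, where 0.980% of all genes were. Among the 16 called lower, Plat and Bmp1 lay nearest to 0 and are named after their values were seen. Plat at -0.15 was not called with array medians subtracted (limma adjusted p 0.547), and the probes of Bmp1 ran from -3.15 to 0.95. The lowest were the fibrillar collagen chains Col1a1 at -7.25 ± 0.09 (SD, n = 2; its 3 probes ran from -9.16 to -6.06) and Col1a2 at -7.18 ± 0.18, the gelatinase Mmp2 at -6.22 ± 0.12 and the collagen-binding proteoglycan decorin (Dcn) at -6.03 ± 0.07. The 2 higher genes were the crosslinking enzyme Tgm2 at 5.14 ± 0.0048 and vitronectin (Vtn) at 3.83 ± 0.03. This list overlaps genes already known to be low in these arrays, so its count is not independent evidence.

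Markers of the cells that make matricellular proteins gave different counts from list to list. Lower and higher here are limma's calls, to be read against 49.7% lower and 32.9% higher among all genes. All 12 fibroblast and marrow stromal markers were measured, and 11 were lower and 1 higher, from Prrx1 at -7.44 ± 0.03 (SD, n = 2) to Lepr at 1.20 ± 0.15, with a median log2 ratio of -3.14. Osteoblast and osteoclast markers had 3 lower and 5 higher of 8, from Ctsk at -3.63 ± 0.06 to Alpl at 4.72 ± 0.01, an enzyme that alveolar epithelium also makes. Macrophage markers, from cells that secrete osteopontin, had 4 lower and 5 higher of 10, from Cd14 at -2.51 ± 0.0054 to Lyz2 at 4.61 ± 0.03, a share of lower calls near that of all genes. Smooth muscle markers had 3 lower and 1 higher of 5, from Tagln at -3.89 ± 0.02 to Des at 2.04 ± 0.13.

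Markers of platelets and endothelium, which hold Thbs1 and Sparc products, were mostly higher in lung. Of 10 platelet markers listed, from cells that store thrombospondin 1, 8 were measured. By limma 7 were higher and 1 lower, where 32.9% of all genes were called higher. They ran from Gp1ba at -0.99 ± 0.15 (SD, n = 2) to Clec1b at 8.38 ± 0.44, with a median log2 ratio of 1.49. Clec1b and Mmrn1 (8.05 ± 0.14) lay far above the next marker, Treml1 at 3.36 ± 0.02, whose probes lay at 1.73 and 4.99. Mmrn1 and Treml1 are named here after their values were seen. All 8 endothelial markers were called higher, from Tie1 at 2.27 ± 0.07 to Kdr at 6.04 ± 0.11, with a median log2 ratio of 4.19. These are ratios and not amounts, so no marker can be said to be at 0 in lung or in mix1, and the part of any cell type in the ratios of the 10 genes was not tested.

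**Figure D5:**
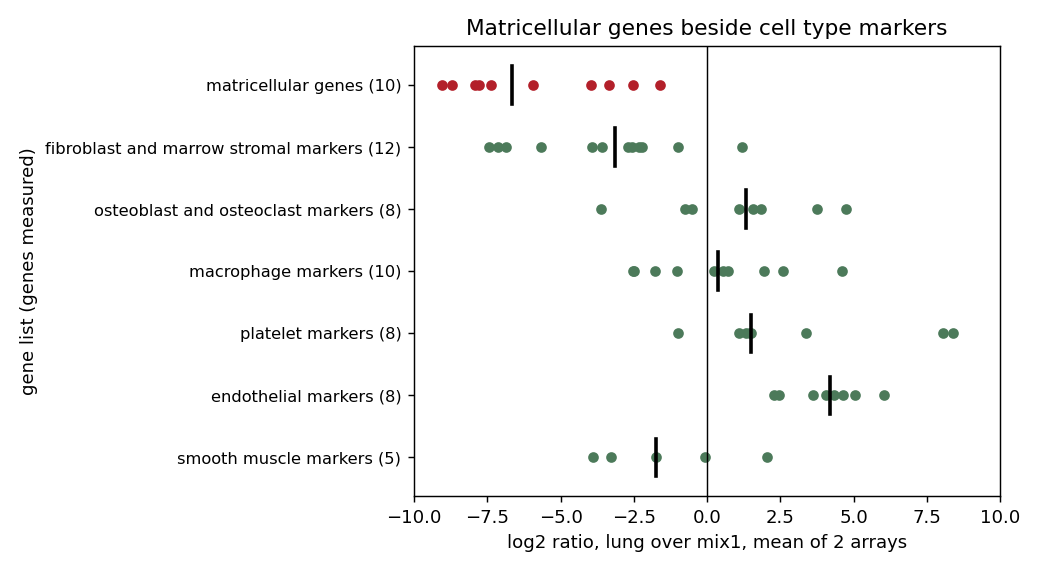
Mean log2 ratio of lung over mix1 (x axis) of the 10 matricellular genes (red) and of the genes of 6 marker lists (green), 1 point per gene, with the median of each list as a black bar. Medians run from -6.66 for the matricellular genes and -3.14 for stromal markers to 4.19 for endothelial markers.

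Over 2 arrays of a single contrast, likeness between genes can only mean similar ratios. By the distance between the array values, and leaving out the 10 genes themselves, the gene nearest to Spp1 was Col11a1, a minor fibrillar collagen chain, at a log2 ratio of -8.62 ± 0.06 (SD, n = 2) and a distance of 0.11. Outside the 10 genes, Col11a1 was also nearest to Ccn4, at a distance of 0.59, and nearest to Thbs2 was the alcohol dehydrogenase Adh7 at -7.99 ± 0.16, at a distance of 0.09.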

How the data were processed

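The authors' deposited table holds 1 log2 value per probe and array, and 0 columns were left unused. Agilent Feature Extraction is named in the submitters' processing notes. Its version, background correction and dye normalization were not given in the sources used here. Base 2 was inferred: values run from -11.74 to 9.09, too wide for base-10 ratios of a scanner. Array medians over all probes were -0.16 and -0.21, so arrays were not centred on the median, and the centring stays unknown.

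GEO's platform annotation names 20417 probes, whose symbols were updated by RefSeq accession (16978), current symbol (3044) or synonym (387) against GRCr8 gene tables, with 8 kept. The other 19595 probes are unnamed here. Probes of a gene were averaged, giving 15610 genes, and tested in R 4.3.3 by limma 3.58.1 (an intercept-only lmFit followed by eBayes, 1 residual and 1.28 prior degrees of freedom, adjusted p under 0.05). The test was also run on simulated data with a spread taken from these arrays, and nothing here rests on that run. On the arrays it called 82.7% of genes, 7578 of them under 2-fold in the mean.

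The 10 genes and the lists were chosen with earlier results of these data known, and the motifs after the promoter sequences had been seen. Named genes are the 10, from each of the 4 lists of related genes the 4 farthest from 0 in the direction most of its genes take and the 3 farthest the other way, the ends of marker lists, and the genes nearest to the 3 lowest members. The number of arrays limits the precision. The alternatives tried were subtracting array medians, scaling between arrays, a gene's median probe (the lower of 2), single probes, robust eBayes, treat, an adjusted p under 0.01 and leaving out each array.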

Additional observations from a re-analysis of the deposited data

How the results depend on the processing

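Subtracting array medians raised every gene by 0.19 (log2). No ratio of the 10 genes changed sign under any alternative run. None could have, since all their probes lay below 0 in both arrays and the mildest gene, Postn, was at -1.61. With array medians subtracted, and also with scaling, 9 of the 10 moved by at least their SD between arrays. The median of the 10 genes went from -6.66 to -6.47 with array medians subtracted and to -6.47 with scaling between arrays. It ran from -6.76 to -6.55 when 1 array was left out. With the median probe, Thbs2 went to -8.64 and Ccn1 to -3.45. With treat against 2-fold, calls fell to 1881 lower and 2143 higher among all genes, 7 lower and 7 higher among receptors, and 6 lower and 2 higher in the TGF-beta and YAP list. Counted by probe and not by gene, receptors had 22 of 41 single probes called lower, beside 10060 of all 20417 named probes. With array medians subtracted or scaling between arrays, 6 genes of the TGF-beta and YAP list were 2-fold lower, beside 1887 and 1914 of all genes. Lower calls among all genes went from 60.2% of all calls to 49.7% with medians subtracted and 49.8% with scaling. Counts of 2-fold genes with 1 array left out, a choice made after seeing the data, ran from 2624 to 2787 lower and 2743 to 2781 higher among all genes. No paired analysis was possible because there is a single group of 2 arrays.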

Other observations

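Probes without a gene name also held strongly negative ratios. At least 16-fold lower in lung in both arrays were 78 of the 19595 unnamed probes, beside 215 of the 20417 named ones. Of the unnamed probes, 2 lay below Tnn in both arrays, so the ranks given for the 10 genes hold among named genes only.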
